A study of Homo sapiens with 9 samples.

Results

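Of the 58381 rows of the count table, 69 are genes for axon guidance ligands and their receptors, chosen by gene symbol: 20 semaphorins (SEMA3 to SEMA7 classes), 11 plexins and neuropilins, 8 ephrins, 14 Eph receptors, 7 Slits and Robos, and 9 netrins with the receptors UNC5 and DCC. They were followed in TC-32, an established human cell line from an Ewing sarcoma with the fusion oncogene EWSR1::FLI1. The study addressed which genes respond to the transcription factor ETS1 when it is added to cells that still have the fusion. A lentiviral pLOC vector brought either a red fluorescent protein (RFP, the control group) or a synthetic ETS1 cDNA into the cells, which were selected with puromycin and sorted as single cells. The ETS1 clones were grouped as ETS1-Low and as ETS1-High, the level of the latter being described as comparable to that of cells depleted of the fusion. All groups share the TC-32 background, the vector and the selection, and each has 3 RNA-seq libraries. How many clones stand behind a group is not given in the sources used here, so a difference between clones and an effect of ETS1 cannot be told apart, and the spread between libraries may be technical.

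Guidance cues are secreted or membrane-bound proteins that steer growing axons and migrating cells by attraction or repulsion. Semaphorins act through plexins, with neuropilins as co-receptors for most class 3 members. Ephrins are cell-surface ligands of the Eph receptor tyrosine kinases and can also signal into the cell that carries them. Slits bind Robo receptors, and netrins bind DCC, which mediates attraction, or UNC5 proteins, which mediate repulsion and, like DCC, are known as dependence receptors that favour cell death when unbound. Ewing sarcoma is a tumour with partly neural features, and guidance genes of several of these families are known to be active in neural crest cells.

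The introduced gene followed its labels. ETS1 was at 1.81, 2.03 and 2.15 CPM (counts relative to the library total, scaled with TMM factors) in the RFP libraries, 10.6, 10.9 and 10.3 in ETS1-Low and 19.4, 18.2 and 19.7 in ETS1-High, with no overlap between groups. Reads of the endogenous gene and of the vector's cDNA are not separated in these values. Totals of expected counts ran from 39484704 to 46654734 per library. Among the markers of Ewing sarcoma, 12 of 12 were detected in every group, and their summed level was 4690 to 5070 CPM in RFP, 6400 to 6590 in ETS1-Low and 6960 to 7100 in ETS1-High. CAV1 alone had means of 3600, 4440 and 4870 CPM in these sums, and GLI1 was lower in both ETS1 groups (0.561 and 0.711 CPM against 1.41). Epithelial, endothelial and leukocyte marker lists summed to at most 6.76 CPM in any library. The 6 fibroblast markers summed to 215 to 238, 373 to 376 and 493 to 528 CPM in the same order, most of it COL3A1. LUM and FAP were at 0 in RFP, and LUM was also at 0 in ETS1-Low. PDGFRA went the other way, with means of 12.8 CPM in RFP, 3.72 in ETS1-Low and 2.95 in ETS1-High. COL1A1 was lowest in ETS1-Low (28.3 CPM, against 39.3 in RFP and 50.9 in ETS1-High). The part of these marker shifts in the results below was not tested.

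Of the 69 genes, 56 had enough counts to be tested, and 45 of those had at least 10 counts in every library. The other 11 were EPHA1, EPHB1, NRP2, NTN1, PLXNA4, ROBO2, SEMA3C, SEMA5B, SEMA7A, SLIT1 and UNC5C. They could pass the filter through a group in which they were high, so their selection favoured a difference. Their fitted changes, p-values and ranks below carry that limit. The 13 genes not tested had at most 8 counts in any library. They were SLIT3, UNC5A, UNC5D, ROBO4, NTN5, SEMA3E, SEMA5A, EFNA2 and 5 Eph receptors, and no comparison was made for them. Together the 69 genes took 0.221 to 0.226% of the counts in RFP, 0.177 to 0.182% in ETS1-Low and 0.2 to 0.206% in ETS1-High.

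On the FPKM scale, which is per length and allows levels of different genes to be set side by side, a single ephrin dominated the repertoire. EFNB1, a transmembrane B-class ephrin, was the most abundant of the 69 in every group, with a mean of 128 ± 2.47 FPKM in RFP, 178 ± 2.81 in ETS1-Low and 198 ± 7.93 in ETS1-High (SD, n = 3). In RFP, 16 genes had a mean above 10 FPKM, against 9 in each ETS1 group. After EFNB1, the RFP cells carried mostly PLXNA3 (48.7 ± 1.93 FPKM), the Slit receptor ROBO1 (44.4 ± 1.6), PLXNB2 (39.1 ± 1.34), EPHB4 (35.8 ± 0.731), SEMA3A (34.2 ± 1.89) and EPHA2 (32.4 ± 0.601). The library values of EPHB4 (35.78, 35.12 and 36.58 FPKM) overlapped those of SEMA3A (35.87, 34.66 and 32.17 FPKM). Plexins and neuropilins summed to 164 ± 4.07, 152 ± 6.2 and 164 ± 1.3 FPKM in RFP, ETS1-Low and ETS1-High, while semaphorins went from 108 ± 3.88 to 56.8 ± 1.83 and 50.3 ± 1.85 FPKM. These sums describe the libraries and were not tested.

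**Figure D1:**
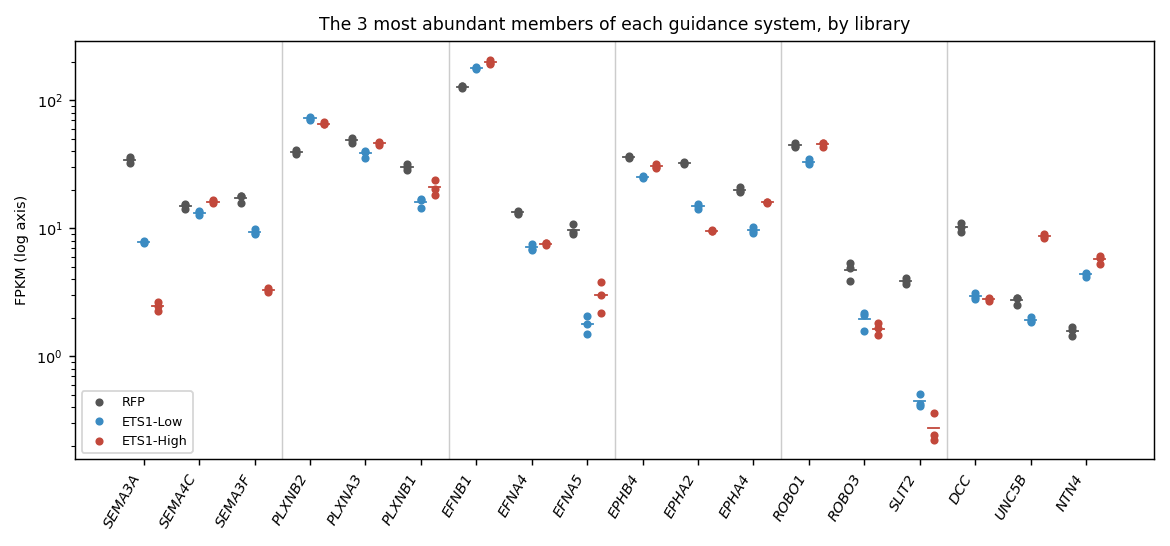
FPKM (log axis) of the 3 most abundant genes of each guidance system in each of the 9 libraries, with a line at the mean of 3. EFNB1 sits highest in every group (128, 178 and 198 FPKM), SEMA3A and SLIT2 step down from RFP, and UNC5B and NTN4 are highest in ETS1-High.

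Most of the tested guidance genes differed between the groups, as did most of all genes tested. In ETS1-High against RFP, 51 of 56 (91.1%) passed an adjusted p of 0.05 (edgeR quasi-likelihood test, adjusted over 17235 genes), where the background over all genes tested was 74.2%. Of the 51, 17 were higher and 34 lower (37% and 37.2% of all genes), and the median log2 fold change of the 56 was -0.38 beside -0.01 for all genes. In ETS1-Low against RFP, 48 of 56 (85.7%) passed (background 74.1%), 10 higher and 38 lower (37.9% and 36.2% of all genes), and the median was -0.70 beside 0.01. ETS1-High against ETS1-Low gave 40 of 56 (71.4%, background 59.2%), 28 higher and 12 lower (29.9% and 29.3% of all genes), with a median of 0.22. The share of genes called lay above the background in all 3 comparisons, and the lower calls outnumbered the higher ones against RFP. The genes were chosen with earlier results of these data known, and the filter favoured a difference in 11 of them. The excess over the background therefore only describes these genes and was not tested.

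Counts restricted to changes of at least 2-fold separated the groups further. In ETS1-High against RFP, 23 of 56 genes passed (41.1%, background 21%). Of these, 7 were higher and 16 lower (12.5% and 28.6%, where all genes gave 9.64% and 11.4%). The 27 genes past 2-fold in ETS1-Low (48.2%, background 20.6%) comprised 5 higher and 22 lower (8.9% and 39.3%, where all genes gave 8.47% and 12.2%). Direct comparison of the ETS1 groups gave 14 genes (25.0%, background 9.74%). Of these, 9 were higher in ETS1-High and 5 lower (16.1% and 8.9%, where all genes gave 6.05% and 3.69%). The libraries of the compared groups did not overlap for 51, 48 and 44 of the 56 genes in the same order of comparisons, where all genes gave 75.5%, 76% and 63.2%. Because the filter could admit 11 of the genes through a high group, these 2-fold counts include genes whose selection favoured a difference. With at least 10 counts required in every library, 14 of 45 genes passed the 2-fold rule in ETS1-High against RFP, in place of 23 of 56. All genes tested under that filter gave 14.1%. The same filter gave 18 of 45 in ETS1-Low against RFP (all genes 13.8%) and 10 of 45 between the ETS1 groups (all genes 5.76%).

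Both comparisons with RFP use the same control libraries, and the direct comparison of the ETS1 groups uses libraries of both, so the calls are not independent and each gene's values are given side by side. NTN3 and SEMA3B, which lie outside the rule for named genes, were called in no comparison.

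**Figure D2:**
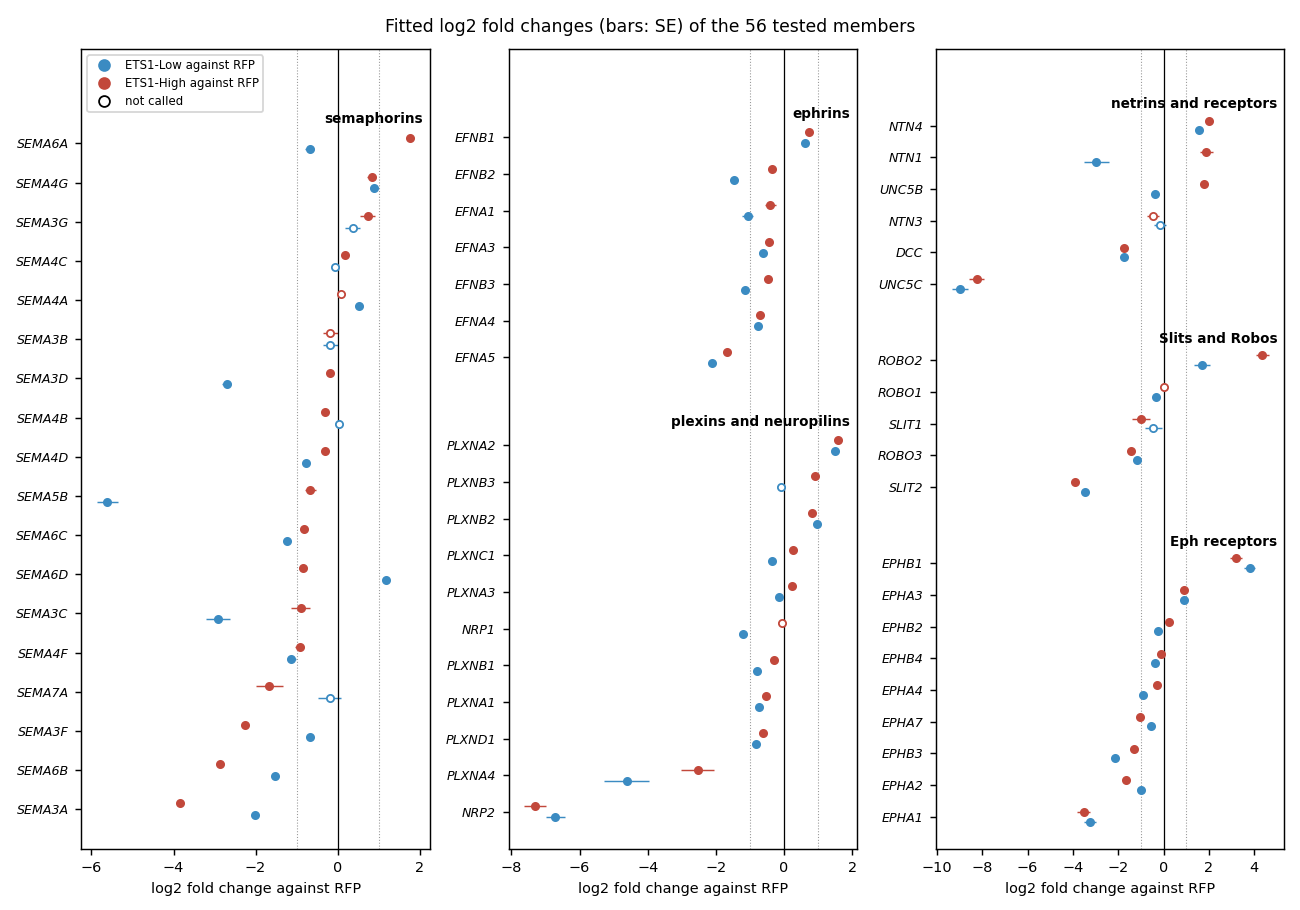
Fitted log2 fold change against RFP of the 56 tested genes by guidance system, with bars of 1 SE. Open points were not called and dotted lines mark a 2-fold change. Most points lie left of 0 in both groups, and UNC5C and NRP2 lie farthest left, where the ETS1 libraries held few counts and the fitted value depends on the prior count.

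Promoters were read for the genes that the RefSeq table covers (59 of 69, GRCh38.p14), because ETS1 belongs to a family that binds sites with a GGAA core, and the fusion is known to bind repeats of that core. The window ran from 250 bases before to 50 after the annotated start, and both strands were searched for CCGGAA and GGAAGGAA. A CCGGAA match can share its last bases with a match of the other motif. CCGGAA was present in 4 of 59 promoters (6.78%, against 17.6% of all 27305 promoters) and GGAAGGAA in 4 of 59 (6.78%, against 3.58%). The CCGGAA matches stood in PLXNB1 at -29, PLXNA1 at -239 and SEMA4B at -249 from the start, and in NTN4 at 33 after it on the opposite strand. GGAAGGAA stood in PLXNB1 and EFNA4 and in SLIT3 and UNC5A, which were not tested. PLXNB1, PLXNA1 and SEMA4B, all with CCGGAA, were lower in ETS1-High than in RFP (log2 fold changes of -0.31, -0.52 and -0.31), whereas NTN4 was higher (2.02). In ETS1-Low PLXNB1 and PLXNA1 were lower (-0.8 and -0.73), SEMA4B was not called (0.04) and NTN4 was higher (1.56). Promoters were covered for 14 of the 16 genes at least 2-fold lower in ETS1-High and for 17 of the 22 in ETS1-Low. None of them held either motif in this window, which says only that these letters are absent there. SEMA3A, SEMA6B, EFNB3, NRP1 and NTN1 were the lowered genes not covered, and only 1 start per gene was read. The 250 upstream bases are shown 5′ to 3′ on the gene's strand for PLXNB1, which holds both motifs, for PLXNA1 and EFNA4 with 1 each, and for the strongly raised EPHB1 and strongly lowered SLIT2 with none; capitals mark the matches.
PLXNB1, chr3:48430087-48430336, minus strand: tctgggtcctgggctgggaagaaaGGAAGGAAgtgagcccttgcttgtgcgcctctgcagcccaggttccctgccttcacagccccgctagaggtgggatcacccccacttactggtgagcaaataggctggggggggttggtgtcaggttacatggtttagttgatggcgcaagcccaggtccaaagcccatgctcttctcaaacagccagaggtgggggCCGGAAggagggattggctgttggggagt
PLXNA1, chr3:126982865-126983114, plus strand: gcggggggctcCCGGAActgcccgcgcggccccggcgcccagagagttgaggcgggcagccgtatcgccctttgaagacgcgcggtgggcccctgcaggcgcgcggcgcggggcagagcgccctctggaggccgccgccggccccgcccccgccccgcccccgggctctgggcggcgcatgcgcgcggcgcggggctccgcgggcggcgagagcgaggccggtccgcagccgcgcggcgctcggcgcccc
EFNA4, chr1:155063490-155063739, plus strand: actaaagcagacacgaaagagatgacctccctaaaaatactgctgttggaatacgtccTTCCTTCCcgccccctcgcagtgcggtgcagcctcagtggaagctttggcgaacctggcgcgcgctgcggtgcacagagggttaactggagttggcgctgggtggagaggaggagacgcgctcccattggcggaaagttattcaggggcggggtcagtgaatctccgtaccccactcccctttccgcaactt
EPHB1, chr3:134795010-134795259, plus strand: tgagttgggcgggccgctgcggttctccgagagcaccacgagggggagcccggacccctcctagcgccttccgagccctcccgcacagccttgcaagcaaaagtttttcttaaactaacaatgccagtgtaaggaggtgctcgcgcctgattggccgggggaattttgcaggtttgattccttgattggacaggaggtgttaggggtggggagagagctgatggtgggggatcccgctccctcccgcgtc
SLIT2, chr4:20251655-20251904, plus strand: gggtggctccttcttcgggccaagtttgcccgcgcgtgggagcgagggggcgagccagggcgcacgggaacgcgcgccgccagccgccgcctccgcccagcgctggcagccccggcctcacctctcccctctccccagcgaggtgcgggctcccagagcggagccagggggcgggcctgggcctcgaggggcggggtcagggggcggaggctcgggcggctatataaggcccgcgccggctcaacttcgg

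Semaphorins, the largest family of guidance ligands, moved in both directions. Of 18 tested, 16 were called in ETS1-High against RFP (88.9%, all genes 74.2%), 4 higher and 12 lower. In ETS1-Low 13 were called (72.2%, all genes 74.1%), 3 higher and 10 lower. When the ETS1 groups were compared directly 14 were called (77.8%, all genes 59.2%), 7 each way. The share called in ETS1-Low was thus no higher than that over all genes. The semaphorin with the smallest p in all 3 comparisons was SEMA3A (ENSG00000075213.10, chr7:83955777-84492724, minus strand), a secreted repellent that collapses growth cones through neuropilin-1 and A-class plexins. Its RFP libraries held 176, 163 and 159 CPM, ETS1-Low 42.1, 42.1 and 39 and ETS1-High 11.7, 11 and 11.9. Each group lay entirely below the one before it. It was 4.05-fold lower in ETS1-Low (log2 fold change -2.02 ± 0.04 SE, adjusted p = 1.63e-37) and 14.4-fold lower in ETS1-High (log2 fold change -3.85 ± 0.05 SE, adjusted p = 2.71e-45), and the step between the ETS1 groups was 3.56-fold (log2 fold change -1.83 ± 0.05 SE, adjusted p = 1.61e-30). Its share of all semaphorin FPKM went from 31.8% ± 2.0 in RFP to 13.7% ± 0.14 and 4.9% ± 0.46 (SD, n = 3), so that SEMA4C became the most abundant semaphorin in both ETS1 groups.

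SEMA3F (ENSG00000001617.11, chr3:50155045-50189075, plus strand), a repellent that signals mainly through neuropilin-2, followed the same descending order but with its larger step between the ETS1 groups. It was at 43.3, 46.2 and 46.6 CPM in RFP, 28.6, 26.9 and 29.3 in ETS1-Low and 9.04, 9.68 and 9.52 in ETS1-High. The groups did not overlap, and ETS1-High was set well apart from both others. The change was 1.61-fold down in ETS1-Low (log2 fold change -0.68 ± 0.04 SE, adjusted p = 2.22e-19) and 4.81-fold down in ETS1-High (log2 fold change -2.27 ± 0.05 SE, adjusted p = 1.05e-38). SEMA6B (ENSG00000167680.15, chr19:4542593-4581776, minus strand), a transmembrane semaphorin that binds A-class plexins, held 20.8, 21.1 and 21.9 CPM in RFP, 7.96, 6.94 and 7.15 in ETS1-Low and 3.25, 2.83 and 2.73 in ETS1-High. Its libraries also fell into 3 separate ranges, and it was 7.27-fold lower in ETS1-High than in RFP (log2 fold change -2.86 ± 0.08 SE, adjusted p = 1.69e-34).

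SEMA3D, SEMA3C and SEMA5B were lowest in ETS1-Low, and in ETS1-High SEMA3D came closest to its RFP level. SEMA3D (ENSG00000153993.13, chr7:84995553-85187056, minus strand), a secreted class 3 ligand known in neural crest and endothelial guidance, is coded on the same stretch of chromosome 7 as SEMA3A. It was at 9.21, 8.9 and 9.32 CPM in RFP, 1.14, 1.53 and 1.49 in ETS1-Low and 8.12, 7.65 and 8.2 in ETS1-High. ETS1-Low stood alone at the bottom, and RFP and ETS1-High were close without overlapping. ETS1-Low was 6.54-fold below RFP (log2 fold change -2.71 ± 0.11 SE, adjusted p = 5.38e-28) and ETS1-High 5.71-fold above ETS1-Low (log2 fold change 2.51 ± 0.11 SE, adjusted p = 1.15e-25). The small difference of ETS1-High from RFP (log2 fold change -0.19 ± 0.08 SE, adjusted p = 0.0281) lost its call without RFP replicate 1 (adjusted p = 0.0584), RFP replicate 3 (0.0799) or ETS1-High replicate 2 (0.116). SEMA3C and SEMA3E lie on the same stretch, and SEMA3C, outside the rule for named genes, was at 1.43, 1.19 and 1.64 CPM in RFP, 0.0793, 0.267 and 0.195 in ETS1-Low and 0.736, 0.823 and 0.717 in ETS1-High. SEMA3E had no counts in either ETS1 group and 10 in the RFP libraries together, too few for a fold. SEMA3A followed another order than its neighbour SEMA3D, while the median change of the other genes within 10 Mb of both was between 0.01 and 0.06 on the log2 scale against RFP.

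SEMA5B (ENSG00000082684.14, chr3:122909082-123028605, minus strand), a transmembrane semaphorin with thrombospondin repeats, showed the same low point at the extreme. The RFP libraries held 187, 188 and 213 counts and ETS1-High 90, 131 and 110, whereas ETS1-Low held 3, 2 and 5. The ETS1-Low libraries were near the detection limit and the other groups well above it. Scaled for library size, the summed counts of RFP were 50.6 times those of ETS1-Low (95% exact interval 27.3 to 106) and those of ETS1-High 31.8 times (17.0 to 66.8), intervals that cover counting error only. ETS1-High remained below RFP (log2 fold change -0.67 ± 0.13 SE, adjusted p = 1.53e-05).

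SEMA6A and SEMA6D, transmembrane semaphorins that bind plexins, were called in opposite directions in the ETS1 groups. SEMA6A (ENSG00000092421.16, chr5:116443555-116574823, minus strand), a ligand of PLXNA2 and PLXNA4, was at 3.49, 3.9 and 3.59 CPM in RFP, 2.57, 1.91 and 2.42 in ETS1-Low and 12, 12.2 and 13.2 in ETS1-High. Every ETS1-Low library was below and every ETS1-High library above all RFP libraries. The fit gave log2 fold change -0.68 ± 0.11 SE, adjusted p = 6.88e-07 for ETS1-Low and log2 fold change 1.77 ± 0.09 SE, adjusted p = 1.43e-23 for ETS1-High, and log2 fold change 2.45 ± 0.10 SE, adjusted p = 4.9e-27 between them. SEMA6A lies on a stretch of chromosome 5 where the median change of other genes was -0.51 in ETS1-Low and -0.37 in ETS1-High against RFP. SEMA6D (ENSG00000137872.16, chr15:47184101-47774228, plus strand) ran the other way, with 4.36, 4.78 and 4.77 CPM in RFP, 10.3, 10.6 and 10.6 in ETS1-Low and 2.46, 2.65 and 2.64 in ETS1-High. ETS1-Low was highest and ETS1-High lowest, with no overlap, and the log2 fold changes were 1.18 ± 0.08 and -0.84 ± 0.10 (SE) against RFP (adjusted p = 1.1e-17 and 3.02e-10).

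SEMA4C, which signals through plexin-B2, differed little in size between groups. It was at 41.8, 45.1 and 43.9 CPM in RFP, 41.1, 41.8 and 42.5 in ETS1-Low and 49.2, 48.8 and 50.2 in ETS1-High, and only ETS1-High lay clear of RFP (log2 fold change 0.18 ± 0.04 SE, adjusted p = 3.2e-05). That call was lost with library totals and no composition factor (log2 fold change 0.07, adjusted p = 0.0761). Under the same setting SEMA4C was called lower in ETS1-Low (-0.19, adjusted p = 2.89e-05), as it was with DESeq2 size factors (adjusted p = 0.0443), upper-quartile factors (0.00834) and limma on log2(FPKM + 1) (0.00671), so whether it differs from RFP depends on the scaling. The remaining tested semaphorins, among them SEMA4A to SEMA4G without SEMA4C, had log2 fold changes against RFP between -2.92 (SEMA3C in ETS1-Low) and 0.89 (SEMA4G in ETS1-Low).

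**Figure D3:**
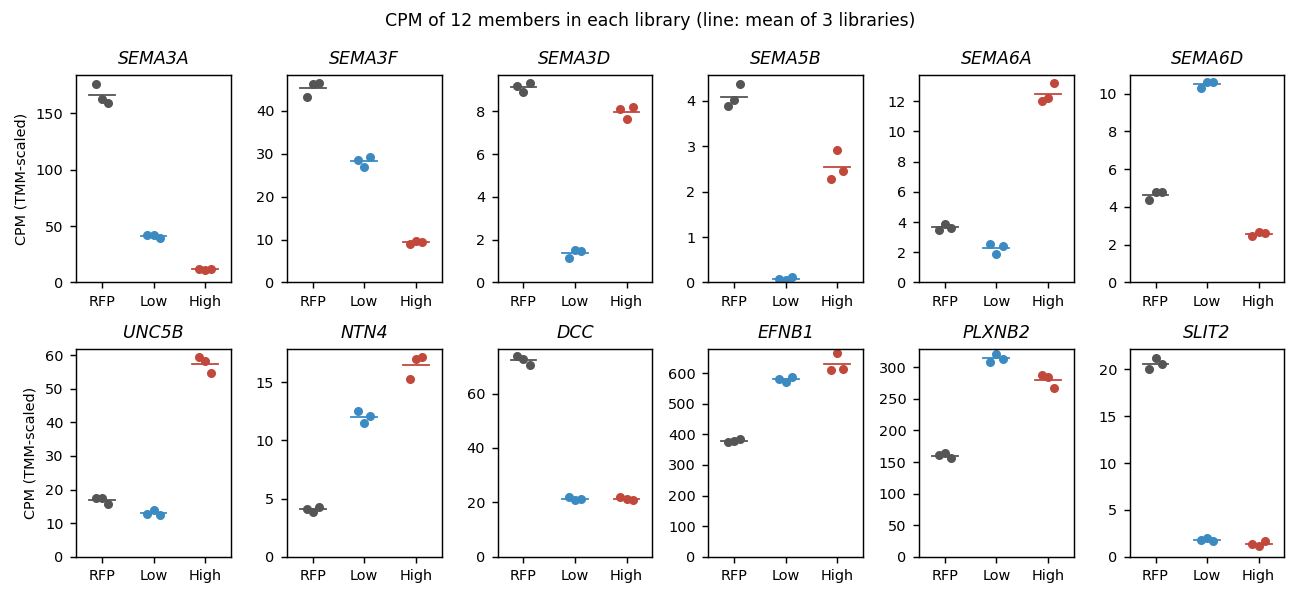
CPM (TMM-scaled) of 12 guidance genes in each library, with a line at the mean of 3 libraries. SEMA3A and SEMA3F step down from RFP to ETS1-Low to ETS1-High, SEMA3D and SEMA5B are low in ETS1-Low, SEMA6A and UNC5B are high in ETS1-High, and SEMA6D is high in ETS1-Low.

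Plexins and neuropilins, the receptors of the semaphorins, moved in both directions, with NRP2 far lower and PLXNA2 and PLXNB2 higher in both ETS1 groups. Of 11 genes, all tested, 10 were called in each comparison with RFP (90.9%, all genes 74.2% in ETS1-High and 74.1% in ETS1-Low). They were 5 higher and 5 lower in ETS1-High, and 2 higher and 8 lower in ETS1-Low. NRP2 (ENSG00000118257.16, chr2:205681990-205798133, plus strand), the co-receptor for SEMA3F, held 247, 255 and 270 counts in the RFP libraries, 4, 0 and 2 in ETS1-Low and 1, 0 and 3 in ETS1-High. Both ETS1 groups were at or near the detection limit, including libraries with 0. The summed RFP counts were 111 times those of ETS1-Low (95% exact interval 50.6 to 303) and 173 times those of ETS1-High (67.3 to 637), scaled for library size. The ETS1 groups did not differ detectably from each other at this depth (ratio 1.56, interval 0.371 to 7.53). Genes within 10 Mb of NRP2 had a median change of 0.25 and 0.51 in the opposite direction.

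NRP1 (ENSG00000099250.17, chr10:33177492-33336262, minus strand), the co-receptor for SEMA3A, was at 6.4, 6.51 and 5.92 CPM in RFP, 2.35, 3.18 and 2.61 in ETS1-Low and 6.78, 6.18 and 4.99 in ETS1-High. ETS1-Low was below both others, and ETS1-High overlapped RFP. It was 2.3-fold lower in ETS1-Low (log2 fold change -1.20 ± 0.11 SE, adjusted p = 4.44e-13), and in ETS1-High its log2 difference from RFP was -0.07 ± 0.10 (adjusted p = 0.529).

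Among plexins, PLXNA2 (ENSG00000076356.6, chr1:208022242-208244384, minus strand), a receptor of SEMA6A and a partner of neuropilins, was higher in both ETS1 groups. Its values were 2.51, 2.24 and 2.52 CPM in RFP, 7.22, 6.03 and 7.25 in ETS1-Low and 6.83, 7.59 and 7.34 in ETS1-High. All 6 ETS1 libraries lay above RFP and overlapped each other (log2 fold change 1.49 ± 0.10 SE, adjusted p = 4.13e-18 in ETS1-Low; log2 fold change 1.58 ± 0.10 SE, adjusted p = 2.76e-19 in ETS1-High). PLXNB2 (ENSG00000196576.14, chr22:50274979-50307646, minus strand), the SEMA4C receptor, went from 161, 164 and 156 CPM in RFP to 308, 321 and 313 in ETS1-Low and 288, 284 and 268 in ETS1-High. It thereby passed PLXNA3 as the most abundant plexin, from 23.9% ± 0.51 to 47.5% ± 0.65 and 40.0% ± 0.78 of the summed plexin and neuropilin FPKM. Its log2 fold changes against RFP were 0.97 and 0.81 (SE 0.03 each; adjusted p = 4.84e-32 and 1.46e-28), and the other genes within 10 Mb had medians of 0.50 and 0.40 there.

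PLXNA3, another class 3 receptor, was at 121, 125 and 121 CPM in RFP, 105, 116 and 112 in ETS1-Low and 145, 148 and 141 in ETS1-High. On this scale ETS1-High was above RFP (log2 fold change 0.24 ± 0.03 SE, adjusted p = 3.35e-09), but on the FPKM scale the difference was -0.08 (limma, adjusted p = 0.177), so its direction against RFP depends on the unit. PLXNA1, PLXNB1 and PLXND1 were lower in both ETS1 groups by log2 fold changes of -0.82 to -0.31. PLXNA4, outside the rule for named genes, held 19, 25 and 23 counts in RFP, 1, 0 and 1 in ETS1-Low and 6, 2 and 2 in ETS1-High.

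Ephrins narrowed to EFNB1. Of 8 ephrins, 7 were tested, and in both ETS1 groups EFNB1 was called higher and the other 6 lower. Over all genes 74.2% were called in ETS1-High against RFP (37.2% lower) and 74.1% in ETS1-Low (36.2% lower). EFNB1 (ENSG00000090776.5, chrX:68829021-68842160, plus strand) was at 374, 377 and 386 CPM in RFP, 582, 572 and 588 in ETS1-Low and 611, 665 and 615 in ETS1-High. All ETS1 libraries were above all RFP libraries (log2 fold change 0.62 ± 0.03 SE, adjusted p = 7.27e-24 in ETS1-Low; log2 fold change 0.73 ± 0.03 SE, adjusted p = 4.47e-27 in ETS1-High). Its share of the ephrin FPKM was 76.4% ± 0.88 in RFP, 91.6% ± 0.33 in ETS1-Low and 90.1% ± 0.43 in ETS1-High, while the other ephrins summed to 39.4 ± 1.18, 16.3 ± 0.497 and 21.7 ± 0.763 FPKM. None of its 9 expected counts is a whole number, which RSEM gives where reads map to more than 1 place, and its level is uncertain to that extent.

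EFNA5 (ENSG00000184349.12, chr5:107376894-107670937, minus strand), a GPI-linked A-class ephrin that repels axons in topographic maps, had the steepest fall of the ephrins. It was at 34.8, 31.0 and 33.1 CPM in RFP, 7.27, 7.74 and 7.57 in ETS1-Low and 9.42, 11 and 10.2 in ETS1-High. RFP stood far above both ETS1 groups, and ETS1-High slightly above ETS1-Low. The fold changes were 4.38-fold down (log2 fold change -2.13 ± 0.06 SE, adjusted p = 1.23e-33) and 3.23-fold down (log2 fold change -1.69 ± 0.06 SE, adjusted p = 2.79e-30), in a stretch of chromosome 5 with local medians of -0.54 and -0.45. EFNB2, the arterial ligand of EPHB4, was at 10.6, 9.41 and 11.7 CPM in RFP, 3.54, 4.14 and 3.78 in ETS1-Low and 8.18, 8.41 and 8.28 in ETS1-High, lowest in ETS1-Low with no overlap (log2 fold change -1.47 ± 0.09 SE, adjusted p = 1.81e-20). EFNB3, a midline ligand of the spinal cord, showed the same order at 19.7, 19.7 and 18.3, 9.23, 8.85 and 8.23 and 13.0, 13.7 and 14.6 CPM (log2 fold change -1.14 ± 0.07 SE, adjusted p = 2.28e-21 in ETS1-Low).

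EFNA1, EFNA3 and EFNA4 lie next to each other on chromosome 1. EFNA1, a ligand of EPHA2, was at 2.39, 2.67 and 2.4 CPM in RFP, 1.24, 0.978 and 1.34 in ETS1-Low and 1.73, 1.67 and 2.24 in ETS1-High. Its fall in ETS1-Low was log2 fold change -1.07 ± 0.17 SE, adjusted p = 1.71e-07. Its smaller difference in ETS1-High (log2 fold change -0.40 ± 0.16 SE, adjusted p = 0.019) lost its call without RFP replicate 2, ETS1-High replicate 1 or ETS1-High replicate 2 (adjusted p = 0.0704, 0.0781 and 0.107). EFNA4, the most abundant A-class ephrin, was lower by similar amounts in both groups (log2 fold changes of -0.78 ± 0.07 and -0.71 ± 0.07). EFNA3 and EFNA4 share exons on the same strand with a readthrough gene, so counts may be split between them.

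**Figure D4:**
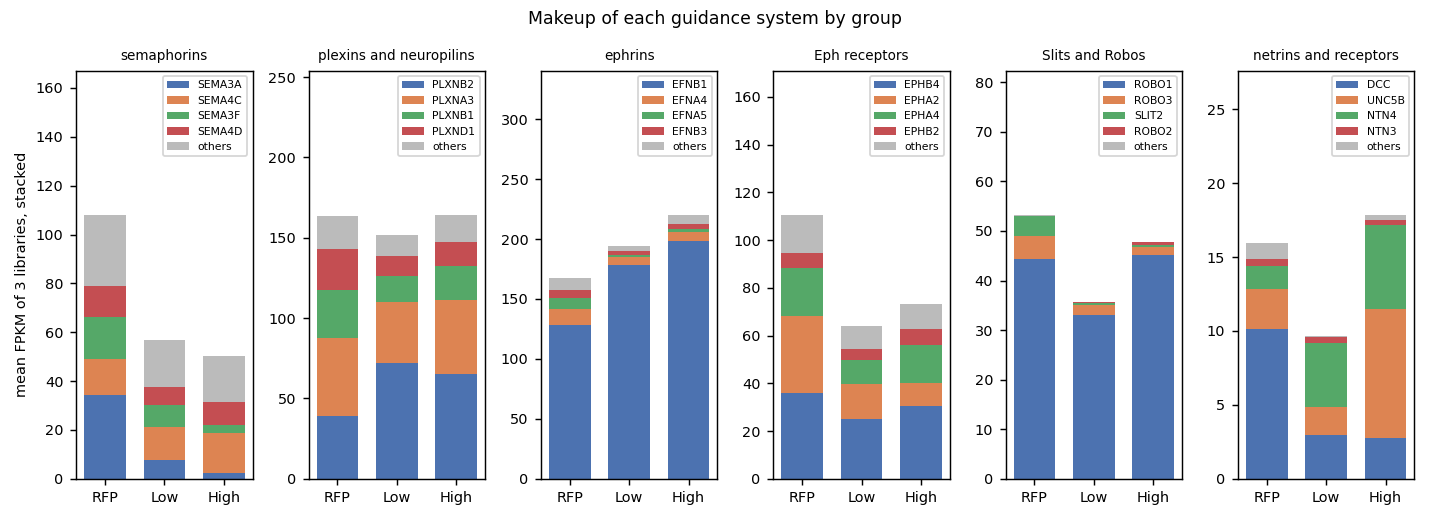
Mean FPKM of 3 libraries stacked by gene for each guidance system, with the 4 most abundant genes in colour and the others in grey; each panel has its own axis from 0. EFNB1 makes up most of the ephrins in every group, PLXNB2 grows among the plexins, and DCC gives way to NTN4 and UNC5B in the netrin system.

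Eph receptors, the receptor tyrosine kinases for ephrins, were lower in sum, at 110 ± 1.57 FPKM in RFP, 64.2 ± 1.42 in ETS1-Low and 73.2 ± 1.78 in ETS1-High. Of 14 genes 9 were tested and all 9 were called against RFP in each ETS1 group, 6 lower in ETS1-High and 7 lower in ETS1-Low. Over all genes 74.2% were called in ETS1-High (37.2% lower) and 74.1% in ETS1-Low (36.2% lower). EPHB4, the receptor of EFNB2 and the most abundant of the family in every group, was at 130, 126 and 133 CPM in RFP, 100, 97.4 and 101 in ETS1-Low and 123, 118 and 114 in ETS1-High. Its differences were small (log2 fold change -0.38 ± 0.03 SE, adjusted p = 3.53e-15 in ETS1-Low; log2 fold change -0.13 ± 0.03 SE, adjusted p = 0.000247 in ETS1-High). EPHA2 (ENSG00000142627.12, chr1:16124337-16156069, minus strand), which is widely expressed in epithelia and tumours, was at 110, 107 and 109 CPM in RFP, 54.4, 52.0 and 56.1 in ETS1-Low and 33.9, 35.7 and 34.4 in ETS1-High. The libraries formed 3 separate ranges in descending order, 2.0-fold down in ETS1-Low (log2 fold change -1.0 ± 0.03 SE, adjusted p = 5.71e-31) and 3.13-fold down in ETS1-High (log2 fold change -1.65 ± 0.04 SE, adjusted p = 1.45e-39). It dropped from the second to the third most abundant Eph receptor in ETS1-High, behind EPHA4.

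EPHB3 (ENSG00000182580.2, chr3:184561785-184582408, plus strand), a B-class receptor known for cell positioning in the gut, was at 27.3, 28.5 and 30.6 CPM in RFP, 6.08, 6.56 and 6.74 in ETS1-Low and 11.8, 12.2 and 11.2 in ETS1-High. ETS1-Low was lowest and RFP highest, without overlap (log2 fold change -2.16 ± 0.06 SE, adjusted p = 3.25e-33 in ETS1-Low; log2 fold change -1.29 ± 0.06 SE, adjusted p = 1.93e-25 in ETS1-High). EPHA1, the first described member of the family, held 95, 83 and 108 counts in RFP, 8, 11 and 7 in ETS1-Low and 5, 9 and 8 in ETS1-High. Both ETS1 groups were near the detection limit and overlapped each other (log2 fold change -3.23 ± 0.27 SE, adjusted p = 2.71e-15 in ETS1-Low; log2 fold change -3.52 ± 0.28 SE, adjusted p = 3.45e-16 in ETS1-High).

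EPHB1 (ENSG00000154928.16, chr3:134795260-135260467, plus strand), a B-class receptor that guides retinal axons at the midline, had the largest rise of the tested Eph receptors in both ETS1 groups. It held 6, 9 and 10 counts in RFP, 113, 94 and 93 in ETS1-Low and 72, 63 and 75 in ETS1-High. EPHB1 is one of the 11 genes that the filter could admit through a high group, and its rank carries that limit. All ETS1 libraries were above all RFP libraries, at a low level of 2.99, 2.09 and 2.27 CPM in ETS1-Low and 1.83, 1.4 and 1.68 in ETS1-High (log2 fold change 3.79 ± 0.25 SE, adjusted p = 7.64e-19 and log2 fold change 3.21 ± 0.27 SE, adjusted p = 2.02e-15). ETS1-High was called lower than ETS1-Low, a call that was lost without ETS1-Low replicate 1 (log2 fold change -0.42, adjusted p = 0.0747). Its exons overlap those of another gene on the same strand, between which the counting could divide reads. EPHA3, outside the rule for named genes, was also higher in both groups, with log2 fold changes of 0.92 ± 0.05 and 0.89 ± 0.05.

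In the Slit and Robo system the ligand SLIT2 fell in both ETS1 groups, and the main receptor ROBO1 fell slightly in ETS1-Low. SLIT2 (ENSG00000145147.19, chr4:20251905-20620561, plus strand), the secreted repellent of the midline, was at 20.1, 21.2 and 20.6 CPM in RFP, 1.8, 2.0 and 1.71 in ETS1-Low and 1.32, 1.18 and 1.63 in ETS1-High. RFP was set apart by about an order of magnitude from all 6 ETS1 libraries. The fall was 11.2-fold in ETS1-Low (log2 fold change -3.48 ± 0.09 SE, adjusted p = 1.11e-35) and 14.9-fold in ETS1-High (log2 fold change -3.90 ± 0.10 SE, adjusted p = 4.57e-37), with local medians of -0.03 and -0.05. ETS1-High was called lower than ETS1-Low (log2 fold change -0.42 ± 0.14 SE, adjusted p = 0.00868), and this call was lost without ETS1-Low replicate 2 or ETS1-High replicate 2 (adjusted p = 0.0658 and 0.0901). SLIT1 and SLIT3, the other Slits, were barely detected: SLIT3 had 16 counts in the RFP libraries together and 0 in both ETS1 groups.

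ROBO1, the receptor that made up 83.5% ± 1.4 of the FPKM of this system in RFP, 92.7% ± 0.95 in ETS1-Low and 94.5% ± 0.48 in ETS1-High, was at 215, 217 and 216 CPM in RFP, 173, 166 and 177 in ETS1-Low and 222, 225 and 217 in ETS1-High. It was lower in ETS1-Low (log2 fold change -0.33 ± 0.03 SE, adjusted p = 6.99e-14), and ETS1-High gave 0.03 ± 0.03 against RFP (adjusted p = 0.297), a value that became -0.07 (adjusted p = 0.0217) with library totals and no composition factor. ROBO2 (ENSG00000185008.17, chr3:75906695-77649964, plus strand), its close relative on the same stretch of chromosome 3, held 7, 8 and 4 counts in RFP, 13, 23 and 18 in ETS1-Low and 124, 107 and 126 in ETS1-High. The 3 groups rose in separate ranges, by 1.70 ± 0.36 in ETS1-Low (adjusted p = 4.42e-05) and 4.36 ± 0.27 in ETS1-High (adjusted p = 4.76e-20) on the log2 scale. ROBO3, a divergent family member that controls midline crossing, was at 4.97, 6.29 and 5.76 CPM in RFP, 2.59, 2.65 and 2.3 in ETS1-Low and 2.36, 1.82 and 2.17 in ETS1-High, lower in both ETS1 groups (log2 fold change -1.17 ± 0.12 SE, adjusted p = 1.43e-12 and log2 fold change -1.42 ± 0.12 SE, adjusted p = 5e-15).

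In the netrin system DCC was the most abundant receptor in RFP and ETS1-Low, and UNC5B in ETS1-High. DCC (ENSG00000187323.11, chr18:52340197-53535899, plus strand), the attractive netrin receptor, was at 73.8, 72.8 and 70.5 CPM in RFP, 22.0, 20.9 and 21.3 in ETS1-Low and 22.1, 21.1 and 21.0 in ETS1-High. RFP stood alone above both ETS1 groups, which overlapped. DCC was about equally low in ETS1-Low (log2 fold change -1.76 ± 0.04 SE, adjusted p = 2.45e-38) and in ETS1-High (log2 fold change -1.76 ± 0.04 SE, adjusted p = 1.5e-38), and the difference between the ETS1 groups was 0.00 ± 0.05 (SE). Other genes within 10 Mb of DCC had medians of 0.29 and 0.28, in the opposite direction. DCC made up 63.5% ± 1.6 of the FPKM of this system in RFP, 30.3% ± 1.1 in ETS1-Low and 15.6% ± 0.35 in ETS1-High.

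UNC5B (ENSG00000107731.12, chr10:71212570-71302864, plus strand), a repulsive netrin receptor also known in vessels, was at 17.5, 17.4 and 15.6 CPM in RFP, 12.8, 13.8 and 12.5 in ETS1-Low and 59.5, 58.1 and 54.8 in ETS1-High. Every ETS1-Low library was below RFP and every ETS1-High library far above it. The fit gave log2 fold change -0.36 ± 0.06 SE, adjusted p = 1.34e-07 in ETS1-Low, log2 fold change 1.77 ± 0.05 SE, adjusted p = 3.45e-35 in ETS1-High and log2 fold change 2.14 ± 0.05 SE, adjusted p = 8.42e-37 between them. Its share of the system went from 17.1% ± 0.59 in RFP to 20% ± 0.99 in ETS1-Low and 48.8% ± 2.1 in ETS1-High, where it was the leading receptor. UNC5C (ENSG00000182168.14, chr4:95162504-95549206, minus strand), its paralogue, held 294, 231 and 275 counts in the RFP libraries, 0, 1 and 0 in ETS1-Low and 2, 0 and 0 in ETS1-High. The ETS1 libraries were at or next to 0, with summed RFP counts 688 times those of ETS1-Low (95% exact interval 123 to 27200) and 359 times those of ETS1-High (99.0 to 2970), scaled for library size.

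The ligands NTN4 and NTN1 were higher in ETS1-High than in RFP. NTN4 (ENSG00000074527.11, chr12:95657807-95791189, minus strand), a netrin of basement membranes, was at 4.09, 3.88 and 4.26 CPM in RFP, 12.5, 11.5 and 12.1 in ETS1-Low and 15.3, 17.0 and 17.2 in ETS1-High. The groups rose in 3 separate ranges, 2.95-fold in ETS1-Low (log2 fold change 1.56 ± 0.08 SE, adjusted p = 1.39e-23) and 4.05-fold in ETS1-High (log2 fold change 2.02 ± 0.08 SE, adjusted p = 6.46e-29). NTN1 (ENSG00000065320.8, chr17:9021510-9244000, plus strand), the classical attractant made by the floor plate, held 21, 14 and 22 counts in RFP, 1, 0 and 5 in ETS1-Low and 59, 78 and 53 in ETS1-High. ETS1-Low was near the detection limit and ETS1-High above every RFP library (log2 fold change 1.89 ± 0.29 SE, adjusted p = 8.02e-08). The summed RFP counts were 8.18 times those of ETS1-Low (95% exact interval 3.53 to 23.2), and those of ETS1-High were 30.4 times (13.7 to 83.8), scaled for library size.

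Other genes of the pathway were taken from a list of 18 co-receptors and secreted modulators and 51 cytoplasmic effectors, of which 65 of 69 were tested. In ETS1-High against RFP, 22 were higher and 36 lower (all genes 37% and 37.2%), with 8 and 19 of them at least 2-fold (12.3% and 29.2%, where all genes gave 9.64% and 11.4%). For ETS1-Low these counts were 19 and 36 (all genes 37.9% and 36.2%), with 3 and 21 at least 2-fold (4.6% and 32.3%, where all genes gave 8.47% and 12.2%). The direct comparison of the ETS1 groups gave 35 genes higher in ETS1-High and 11 lower (all genes 29.9% and 29.3%). The median log2 fold change of the 65 was -0.13, -0.33 and 0.14 in the same order, beside -0.01, 0.01 and 0 for all genes. Some genes of the list, among them GAP43, DCX, DRAXIN and PAK3, held few or no counts in an ETS1 group. They could pass the filter through RFP, so their selection favoured a difference. Their p-values and the counts above carry that limit and only describe the list. It was not counted again with at least 10 counts required in every library. GAP43, a membrane protein of growing axons, was at 106, 100 and 101 CPM in RFP, 0.106, 0.111 and 0.171 in ETS1-Low and 0.0762, 0.0222 and 0.0896 in ETS1-High. The ETS1 libraries held 1 to 7 counts each where the RFP libraries held 5120, 4707 and 4930, and the summed RFP counts were 1650 times those of ETS1-High (95% exact interval 840 to 3830), scaled for library size.

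DCX, a microtubule-binding protein of migrating neurons, was at 71.8, 78.0 and 71.4 CPM in RFP, 0.0793, 0.0889 and 0.0 in ETS1-Low and 0.279, 0.289 and 0.358 in ETS1-High. Its RFP counts were 1300 times those of ETS1-Low (95% exact interval 632 to 3240), and the ETS1-High libraries held 11, 13 and 16 counts (log2 fold change -7.88 ± 0.10 SE, adjusted p = 1.68e-48 against RFP). CRMP1, a collapsin response mediator that relays semaphorin 3A signals, was at 43.5, 43.7 and 45.6 CPM in RFP, 0.132, 0.133 and 0.317 in ETS1-Low and 1.52, 1.45 and 1.21 in ETS1-High (log2 fold change -4.99 ± 0.08 SE, adjusted p = 2.13e-44 in ETS1-High). DPYSL3, of the same family, was also lower in both groups (log2 fold change -3.41 ± 0.08 SE, adjusted p = 3.3e-38 in ETS1-Low; log2 fold change -2.27 ± 0.07 SE, adjusted p = 3.82e-33 in ETS1-High). GAP43, DCX, CRMP1 and DPYSL3 were each lower in every ETS1 library than in any RFP library. PAK3, a kinase downstream of Rac, lies outside the rule for named genes and was also far lower. PAK3 had 413 counts in RFP, 0 in ETS1-Low and 78 in ETS1-High.

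Genes of the list that rose included SRGAP1, a GTPase-activating protein that acts downstream of Slit and Robo, at 4.2, 4.67 and 4.45 CPM in RFP, 28.8, 30.9 and 30.6 in ETS1-Low and 29.7, 28.4 and 29.9 in ETS1-High (log2 fold change 2.76 ± 0.06 SE, adjusted p = 8.17e-39 and log2 fold change 2.72 ± 0.06 SE, adjusted p = 1.14e-38). FLRT2, an adhesion protein that binds UNC5 receptors, rose in 3 separate ranges from 30.4, 27.1 and 30.4 CPM in RFP to 74.4, 74.2 and 75.2 in ETS1-Low and 191, 187 and 189 in ETS1-High (log2 fold change 2.69 ± 0.04 SE, adjusted p = 1.24e-48 in ETS1-High). TIAM1, a Rac activator that interacts with ephrin and Eph proteins, was low in ETS1-Low at 12, 11.2 and 12.1 CPM, with 32.9, 31.1 and 33.4 in RFP and 35.1, 34.3 and 34.1 in ETS1-High (log2 fold change -1.46 ± 0.05 SE, adjusted p = 1.33e-30 in ETS1-Low). NTNG1, a GPI-linked netrin-like protein that does not bind the netrin receptors, was lowest in ETS1-High at 43.3, 42.4 and 43.3 CPM, with 87.0, 90.1 and 87.3 in RFP and 113, 113 and 111 in ETS1-Low (log2 fold change -1.04 ± 0.03 SE, adjusted p = 8.46e-32 in ETS1-High).

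**Figure D5:**
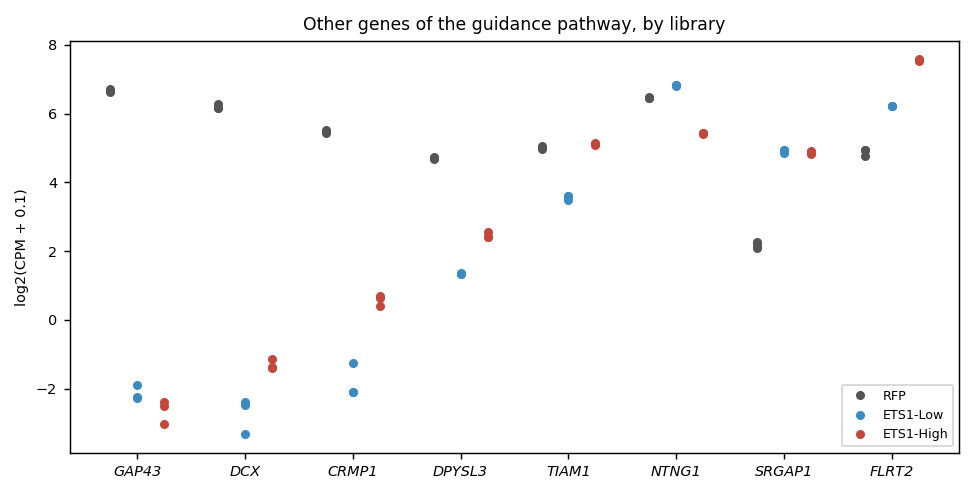
Values of 8 other guidance pathway genes in each library as log2(CPM + 0.1). GAP43, DCX, CRMP1 and DPYSL3 are far lower in all 6 ETS1 libraries, SRGAP1 and FLRT2 are higher, TIAM1 is low in ETS1-Low and NTNG1 is low in ETS1-High.

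Because the cells were sorted as single cells, each gene was also set beside its chromosomal neighbours. Local medians existed for 54 of the tested genes and lay between -0.47 and 0.57 for ETS1-High against RFP, and between -0.61 and 0.5 for ETS1-Low. After subtraction of the local median, 21 of the 23 genes that changed at least 2-fold in ETS1-High kept a difference of at least 2-fold, as did 25 of 27 in ETS1-Low and 14 of 14 between the ETS1 groups. EPHA7 and SLIT1 dropped below it in ETS1-High, and EFNA1 and SEMA6D in ETS1-Low. Copy number itself was not measured. Exons of 30 of the 69 genes overlap those of another gene, 24 of them on the opposite strand, including DCC, NRP2, UNC5C, SEMA3F, SEMA6A, SEMA6D, ROBO2 and EPHA1. The library kit keeps strand, but whether the counting used it is not stated in the sources used here, so reads of these genes and of their overlapping partners may not be fully separated.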

How the data were processed

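Polyadenylated RNA of 9 TC-32 libraries was sequenced from stranded libraries, per the labels' protocols. The authors deposited RSEM expected counts and RSEM FPKM values per gene, per the file headers. The submitters' processing notes name cutadapt 4.4, STAR 2.7.3, featureCounts of Subread 2.0.3 and limma 3.38.3 with GRCh38/hg38, without roles, and the annotation release is not given in the sources used here. All columns were matched to libraries by name.

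The 69 genes were found by symbol pattern. These members, the list of other pathway genes and the marker lists were chosen with earlier results of these data known. Expected counts were rounded and fitted in edgeR 4.0.16 (R 4.3.3) with TMM factors, filterByExpr by group and robust quasi-likelihood over all 9 libraries, with the group as the only factor. This left 17235 genes, p-values were Benjamini-Hochberg adjusted over all of them, and genes were called at an adjusted p under 0.05. An SE is the log2 fold change divided by the square root of its F statistic. Levels are CPM on TMM-scaled library sizes, or FPKM between genes. Where a group held at most 5 counts in every library, the ratio of summed counts is given with an exact binomial 95% interval. Such intervals cover counting error only, since summing the libraries of a group leaves out the spread between them. The libraries also carry no molecular identifiers. The table holds 26816 genes at 0 in every library, and between 9.0% and 10.28% of values per library are not whole.

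Genes named singly were, per system and comparison, up to 4 called genes with the smallest p, at least 2-fold changed, with a mean of at least 50 counts in the higher group and no overlap of libraries. To these came the most abundant pair of each system and genes called in opposite directions in the ETS1 groups and at least 2-fold apart. The other pathway genes followed the same rule, up to 5 per comparison. Positions are from GENCODE 44 (GRCh38), and the local median covers other genes with a mean log2 CPM above 1 within 10 Mb on each side, at least 20 of them. Promoters are from RefSeq (GRCh38.p14).

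Replicate libraries differed beyond sampling noise (chi-square per gene of 2.66 to 5.19). This does not tell technical from biological spread, and each library was entered separately in the fits. The alternatives were other scalings, the DESeq2 1.42.0 Wald test, other count filters, a replicate block, only the groups compared, limma 3.58.1 on log2 FPKM, and leaving out each library. The fits were tested on simulated data.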

Additional observations from a re-analysis of the deposited data

Results flagged for a closer look

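The effects of ETS1-Low and ETS1-High against RFP differed for 4 genes that were called in opposite directions against RFP and were at least 2-fold apart in the direct test between the ETS1 groups (edgeR). NTN1 was 4.84 higher in ETS1-High on the log2 scale (adjusted p = 6.78e-14), with 1, 0 and 5 counts in the ETS1-Low libraries, so its fitted size depends on the prior count. SEMA6A was 2.45 higher (adjusted p = 4.9e-27), UNC5B was 2.14 higher (adjusted p = 8.42e-37), and SEMA6D gave -2.02 (adjusted p = 1.4e-24). Each was higher or lower in 3 of 3 libraries of one group than in all of the other. These 4 genes kept their calls and directions when any 1 library was left out. NTN1 lost its ETS1-Low call against RFP with limma on log2(FPKM + 1) without the filter (adjusted p = 0.0682). EPHB2, PLXNA3 and PLXNC1 were also called in opposite directions against RFP but were less than 2-fold apart between the ETS1 groups. The share of all genes that meet this rule was not counted, so the 4 genes are only described. No other search for outlying libraries was made.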

How the results depend on the processing

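For the 126 fold changes of named genes, 2395 of 2438 checks under other settings kept direction and call, 31 lost the call, 8 gained one and 4 changed sign. The sign changes were PLXNA3 in ETS1-High against RFP (-0.08 with limma on log2 FPKM under each pseudocount and without the filter) and ROBO1 in the same comparison (-0.07 with library totals and no composition factor). Library totals moved the median of all genes to -0.11 and -0.12 in the comparisons of ETS1-High and ETS1-Low with RFP. They ended the calls of PLXNC1 and SEMA4C and made one of ROBO1 in ETS1-High, SEMA4C was called lower in ETS1-Low under 8 settings, and no gene was called in the opposite direction under another scaling. The cause of the sign changes was not tested.

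With limma on the FPKM values at a mean of at least 1, fewer genes were tested (41 of 69). Of these 41, it called 32 (pseudocount 1) and 31 (0.1) in ETS1-High against RFP, beside 71.6% and 71.4% of all genes tested. At least 2-fold were 11 and 12, beside 9.38% and 12.9% of all genes tested. With pseudocount 1 the 2-fold count was 11 in ETS1-Low against RFP (9.1% of all genes) and 6 between the ETS1 groups (3.21%), where 0.1 gave 9 (5.22%). Without the filter the 2-fold counts were 12, 13 and 6 (4.49%, 4.34% and 1.46%). With at least 10 counts in every library the 2-fold count was 14 in ETS1-High against RFP, among 45 genes tested (14.1% of all genes).

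Leaving out 1 library gave 49 to 51 calls and 22 to 23 at least 2-fold in ETS1-High against RFP, 48 to 49 and 25 to 28 in ETS1-Low, and 39 to 41 and 14 to 16 between the ETS1 groups. With the replicate number as a block, 51, 48 and 40 genes were called and 22, 27 and 15 were at least 2-fold. The numbers did not pair the libraries: correlations of same-numbered libraries over 12349 genes ran from -0.093 to 0.112, 1 of 9 was over 0.1, and 4 of 9 libraries correlated best, among the 6 libraries of the other groups, with one of their own number. Alternatives with library totals and upper-quartile factors were chosen after seeing the data. Depth limits the genes with few counts in a group, such as NRP2, UNC5C, NTN1 and SEMA5B in ETS1-Low, whose ratios carry wide intervals.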

Other observations

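Among co-receptors and secreted modulators, NEO1, a receptor of netrins and repulsive guidance molecules, and DRAXIN, a secreted antagonist that binds DCC, lie outside the rule for named genes and were looked at after their values were seen. NEO1 was at 94.0 ± 2.89 CPM in RFP, 36.7 ± 0.635 in ETS1-Low and 32.7 ± 0.938 in ETS1-High (SD, n = 3), a log2 fold change of -1.36 ± 0.04 and -1.52 ± 0.04 (SE; edgeR adjusted p = 1.58e-35 and 1.33e-37). DRAXIN held 460, 479 and 458 counts in RFP, 3, 8 and 9 in ETS1-Low and 5, 3 and 2 in ETS1-High. Its summed RFP counts were 125 times those of ETS1-High (95% exact interval 67.9 to 262, counting error only). NRCAM, an adhesion protein that joins neuropilin complexes, also lies outside the rule and was looked at after its values were seen. It held 616, 691 and 688 counts in RFP, 64, 87 and 73 in ETS1-Low and 30, 20 and 21 in ETS1-High. In all 3 genes every ETS1 library lay below every RFP library. They do not stand for the whole list of co-receptors and secreted modulators. Of its 15 tested genes, 5 were called higher and 9 lower in ETS1-High against RFP (all genes 37% and 37.2%). At least 2-fold were 4 of the higher and 8 of the lower genes (all genes 9.64% and 11.4%). In ETS1-Low 3 were called higher and 8 lower (all genes 37.9% and 36.2%).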
